A study of Mus musculus with 8 samples.

Results

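The annexins are proteins that bind phospholipid membranes when calcium rises, and 10 of their genes (*Anxa1* to *Anxa9* and *Anxa11*) were followed here in the cochlea of newborn mice. The members are the genes whose Ensembl identifier carries one of these symbols in the NCBIM37 annotation, which gave 10 of the 36536 genes counted in every library. RNA-seq libraries were made from cells sorted from the freshly dissected cochleas of LFng-GFP mice on postnatal day 1 (P1) or postnatal day 6 (P6). The groups are P1 GFP+, P1 GFP-, P6 GFP+ and P6 GFP- cells, with 2 libraries in each. All of these mice are of the strain B6;FVB-Tg(Lfng-EGFP)HM340Gsat/Mmucd, so both fractions carry the BAC transgene, and the cells had neither culture nor drug treatment. GFP+ cells are the brightest cells of the sort. They hold border, inner phalangeal, outer pillar and Deiters' cells, the supporting cells in which *Lfng* regulatory sequence drives the transgene. Cells with weak fluorescence were not collected, and GFP- cells are a mixture of the other cochlear cell types. Each library pools the sorted cells of many cochleas, and no source used here says that libraries 1 and 2 of a group came from separate litters, so the p-values measure only the spread between these libraries, which may be technical. The dissection also differed with age, since the lateral wall was separated at P1 and only partly removed at P6, so age and dissection cannot be told apart. The comparisons ask which annexins distinguish supporting cells from the rest of the cochlea, and how their levels differ between the ages.

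All annexins share a core of repeats that holds the calcium and membrane binding sites, and they differ in the tail in front of it, which binds partner proteins. ANXA5 binds phosphatidylserine, the lipid that cells expose on their outer surface when they die, and forms lattices on membranes. ANXA1 and ANXA2 bind S100 proteins through their tails, ANXA1 is also known as a brake on inflammation, and ANXA2 with S100A10 binds plasminogen at the cell surface. ANXA6 has a doubled core, and several annexins gather at torn plasma membrane and take part in its repair. In bulk RNA a lower level can mean fewer cells of a type or less RNA per cell, and the 2 cannot be told apart here.

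*Anxa5*, the member with the highest level in GFP+ cells, is also the annexin for which the study designed an in situ hybridization probe. The genomic parts of its primers were matched to NCBIM37 and are given here because they show what the probe detects. They span chr3:36347908-36348327, 420 bases within 1 exon of *Anxa5*. The forward primer lies in coding sequence and the reverse primer in the untranslated end of that exon. With this probe, on ICR or CF1 mice rather than the LFng-GFP mice, the study lists signal in supporting cells and stria vascularis at P1. At P6 it lists the greater epithelial ridge and stria vascularis, without supporting cells, although its text counts *Anxa5* among genes expressed at both ages.
*Anxa5* probe, forward primer, chr3:36348309-36348327, minus strand: gcgacacatctggagacta
*Anxa5* probe, reverse primer without its T7 tail, chr3:36347908-36347926, plus strand: caggtctgctagagcagta

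The promoters of *Anxa5*, *Anxa1* and *Anxa2* are shown, *Anxa5* as the member high in GFP+ cells, *Anxa1* as the one low in them and *Anxa2* because its libraries lay lower in GFP+ than in GFP- cells at P1 and higher at P6, although neither difference, nor their change between the ages, passed the test. They come from RefSeq on GRCm38.p6, a later build than that of the counts, and run from 250 bases before to 50 bases after the start of transcription. Entries were found for 8 of the 10 annexins, without *Anxa3* and *Anxa6*. Capitals mark matches, on either strand, to 3 letter strings, the TATA box TATAAA, the CCAAT box CCAAT and the GC box GGGCGG, which do not overlap each other here. Of all 32851 RefSeq promoters, 13.6% hold the TATA box, 37.4% the CCAAT box and 35.7% the GC box.
*Anxa5*, chr3:36475838-36476137, minus strand: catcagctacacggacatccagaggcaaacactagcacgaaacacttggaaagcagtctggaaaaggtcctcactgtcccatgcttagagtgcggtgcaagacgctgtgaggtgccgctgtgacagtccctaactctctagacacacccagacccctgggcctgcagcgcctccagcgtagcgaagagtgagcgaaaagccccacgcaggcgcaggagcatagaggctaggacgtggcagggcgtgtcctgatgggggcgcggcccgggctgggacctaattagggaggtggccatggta
*Anxa1*, chr19:20390622-20390921, minus strand: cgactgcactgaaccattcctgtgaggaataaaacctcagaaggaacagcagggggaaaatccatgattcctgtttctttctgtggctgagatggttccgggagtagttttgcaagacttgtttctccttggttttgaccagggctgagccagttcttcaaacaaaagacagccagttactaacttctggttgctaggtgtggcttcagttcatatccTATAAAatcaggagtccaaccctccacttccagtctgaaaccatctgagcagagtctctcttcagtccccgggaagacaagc
*Anxa2*, chr9:69453433-69453732, plus strand: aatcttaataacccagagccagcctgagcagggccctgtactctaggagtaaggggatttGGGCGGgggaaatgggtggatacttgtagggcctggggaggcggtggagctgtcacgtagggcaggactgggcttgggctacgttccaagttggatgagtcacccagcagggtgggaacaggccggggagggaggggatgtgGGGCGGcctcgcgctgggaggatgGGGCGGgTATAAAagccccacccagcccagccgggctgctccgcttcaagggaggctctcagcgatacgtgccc
The *Anxa5* window holds none of the 3 strings and 16 CpG dinucleotides, more than 67.0% of all promoters have. The *Anxa1* window has 1 TATA box and 3 CpG dinucleotides, and the *Anxa2* window has 1 TATA box, 3 GC boxes and 13 CpG dinucleotides. These matches describe the letters of each window and are not evidence of a bound factor.

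Gene counts per library ran from 17769024 to 67695039, and levels are given in CPM, the count of a gene scaled to that gene total. The sorted fractions were first checked against markers. The summed level of 10 supporting cell markers, *Lfng*, *Sox2* and *Prox1* among them, was 8283 to 8822 CPM in P1 GFP+ and 5571 to 7255 CPM in P6 GFP+ libraries, against 711 to 906 CPM in the GFP- libraries, so the GFP+ libraries were the higher ones at both ages. Of the 10, edgeR called 8 higher and 1 lower at P1 and 8 higher at P6. The sum leans on *Lfng*, whose regulatory sequence drives the sort, at 2460 and 2821 CPM in P1 GFP+ libraries, and the marker called lower was *Slc1a3*, at 157 and 157 CPM in P1 GFP+ against 379 and 312 CPM in P1 GFP- libraries. Hair cell markers also lay higher in the GFP+ fraction. The summed level of 8 such markers was 711 to 824 CPM in P1 GFP+ against 400.0 to 457 CPM in P1 GFP- libraries. At P6 it was 431 to 503 CPM against 338 to 379 CPM. Of the 8, edgeR called 7 higher at P1 and 6 at P6, where 37.3% and 12.9% of all genes were called. Their median log2 fold changes were 3.21 and 3.41, against 4.08 and 3.18 for the supporting cell markers. The sums lean on *Myo6*, at means of 459 CPM in P1 GFP+ and 377 CPM in P1 GFP- cells. At P6 its means were 288 CPM in GFP+ and 326 CPM in GFP- cells. In P6 GFP+ cells, replicate 2 stood apart from replicate 1. The summed level of 6 fibrocyte and mesenchyme markers, all detected in every library, was 743 CPM in P6 GFP+ replicate 1 and 2597 CPM in replicate 2, against 267 to 285 CPM in P1 GFP+ libraries and 12936 to 17263 CPM in GFP- libraries. Endothelial markers were 3.82-fold and Schwann cell markers 2.12-fold as high in replicate 2 as in replicate 1. Annexin results that change with this library are given with and without it. When 1 library is left out, its group is a single library, the spread is taken from the remaining pair or pairs, and the lone library is assumed to vary like them. The share of all genes called then shifts widely and is given beside most such counts, which are not read as results about the annexins.

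The makeup of the annexin pool differed between the fractions. Per kilobase of exon, used to compare levels between genes, *Anxa5* was the leading annexin in GFP+ cells and *Anxa6* in GFP- cells. The exon length covers every annotated exon of a gene, 1678 bases for *Anxa5*, 2930 for *Anxa6*, 3731 for *Anxa2* and 4645 for *Anxa4*. The shares and ranks depend on this choice of length. *Anxa5* made up 85.9% and 85.7% of the summed annexin CPM per kilobase in P1 GFP+ libraries and 81.0% and 73.1% in P6 GFP+ libraries. In GFP- libraries its share was 24.7% and 27.8% at P1 and 30.4% and 30.8% at P6. *Anxa6* held 42.1% and 41.2% in P1 GFP- and 45.8% and 44.1% in P6 GFP- libraries, but 4.62% and 4.48% in P1 GFP+ and 12.1% and 16.5% in P6 GFP+ libraries. Every one of the 4 GFP+ libraries thus had an *Anxa5* share above every GFP- library, and an *Anxa6* share below. Among 34391 genes ranked by mean CPM per kilobase, *Anxa5* stood at rank 34 in P1 GFP+ and rank 26 in P6 GFP+ cells, and at ranks 434 and 292 in P1 and P6 GFP- cells. *Anxa6* stood at rank 1826 in P1 GFP+ cells and at rank 241 in P6 GFP+ cells. At the other end, *Anxa8* was the lowest of the 10 in all groups. The annexins outside the set were also barely detected. *Anxa10* had 1 count in each of 2 libraries and *Anxa13* between 0 and 8 counts per library.

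**Figure D1:**
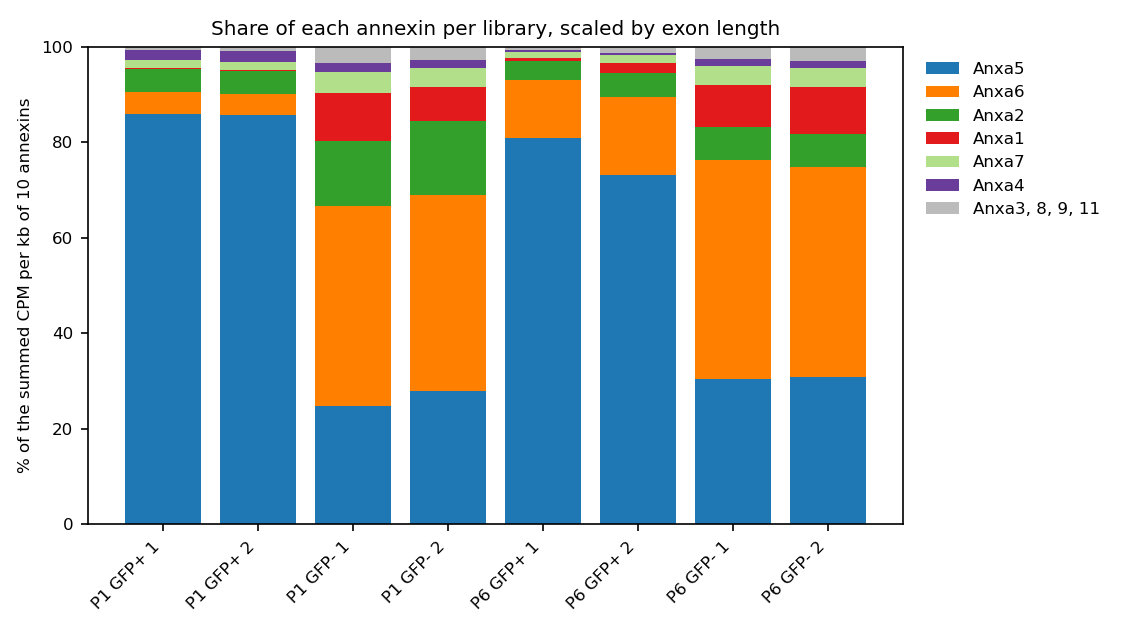
Stacked bars give the share of each annexin in the summed CPM per kilobase of the 10 annexins, in percent, for each of the 8 libraries. *Anxa5* fills 73.1% to 85.9% of the GFP+ bars and 24.7% to 30.8% of the GFP- bars, where *Anxa6* takes 41.2% to 45.8%.

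The first comparison asked which annexins differed between supporting cells and other cochlear cells at P1. *Anxa5*, *Anxa4* and *Anxa9* were higher in GFP+ cells, and *Anxa1*, *Anxa3*, *Anxa6* and *Anxa8* were lower, by up to 30.5-fold for *Anxa1*. These 7 of the 10 passed the test (Benjamini-Hochberg adjusted p below 0.01 over all genes, edgeR's quasi-likelihood test), where 37.3% of all 18682 genes tested passed. In all genes 16.6% passed as higher and 20.7% as lower. Of the 7 annexins, 5 also differed by more than 4-fold, which held for 17.8% of all genes. The replicates of the groups did not overlap for any of the 10, which was also the case for 79.3% of all genes tested. The median log2 fold change was -0.38 for the 10 annexins and 0.0075 for all genes.

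*Anxa5* (ENSMUSG00000027712, chr3:36347847-36374765, minus strand) measured 961 and 1017 CPM in P1 GFP+ libraries and 131 and 160.2 CPM in P1 GFP- libraries. Both GFP+ libraries lay far above both GFP- libraries, with a log2 fold change of 2.87 (SE 0.13, adjusted p = 3.03e-05 by edgeR). *Anxa4* (ENSMUSG00000029994, chr6:86686834-86743578, minus strand), a member known from secretory epithelia, measured 63.9 and 75.9 CPM in GFP+ and 27.9 and 28.3 CPM in GFP- libraries. It was higher in both GFP+ libraries, by a log2 fold change of 1.42 (SE 0.10, adjusted p = 0.000124 by edgeR). *Anxa9* (ENSMUSG00000015702, chr3:95100018-95111098, minus strand), an atypical member, was low throughout at 4.71 and 6.39 CPM in GFP+ and 2.85 and 2.74 CPM in GFP- libraries. Its log2 fold change was 1.08 (SE 0.23, adjusted p = 0.00975 by edgeR), just inside the threshold. The *Anxa9* call was lost with DESeq2 size factors, library totals, a replicate block, all 8 libraries in 1 fit, or either P1 GFP+ library left out, with adjusted p-values by edgeR from 0.0105 to 0.0901. In addition, 71 exon bases of *Anxa9* are shared with *Fam63a* on the other strand, and whether counting used the strand is not given in the sources used here.

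*Anxa6* (ENSMUSG00000018340, chr11:54792610-54846947, minus strand), whose coding length of 2019 bases compares with 957 for *Anxa5*, measured 90.2 and 92.7 CPM in P1 GFP+ and 390.1 and 415 CPM in P1 GFP- libraries. The GFP+ libraries were lower, by a log2 fold change of -2.03 (SE 0.09, adjusted p = 2.57e-05 by edgeR). *Anxa1* (ENSMUSG00000024659, chr19:20447918-20465434, minus strand) was close to absent from P1 GFP+ cells, at 1.83 and 2.85 CPM, and measured 84.5 and 64.3 CPM in P1 GFP- cells. This was the largest difference of the family by fitted fold change, with a log2 fold change of -4.93 (SE 0.24, adjusted p = 3.48e-05 by edgeR). *Anxa3* (ENSMUSG00000029484, chr5:97222404-97274987, plus strand) measured 0.916 and 1.00 CPM in GFP+ and 9.76 and 8.13 CPM in GFP- libraries, a log2 fold change of -3.12 (SE 0.24, adjusted p = 0.000151 by edgeR). As a measure of other cells in the P1 GFP+ libraries, the summed markers of 8 other cell types stood between 0.302% (melanocytes) and 55.1% (Schwann cells) of their GFP- mean. Hair cell markers, not among the 8, stood at 166% and 192%. Endothelial markers stood at 29.9% and 26.7%, cartilage and bone markers at 34.0% and 43.1%, and macrophage markers at 11.8% and 10.1%. The Schwann cell sum leans on *Sox10*, at means of 280 CPM in P1 GFP+ and 122 CPM in P1 GFP- cells. The other 4 of its 5 markers were called lower, as were 20.7% of all genes. The cartilage and bone sum leans on *Col2a1*, at 5834 and 15065 CPM. Its other markers were *Acan* at 0.343 and 10.9 CPM, *Matn1* at 3.48 and 16.9 CPM, *Runx2* at 0.809 and 29.6 CPM and *Ibsp* at 0.113 and 9.81 CPM. The fibrocyte and mesenchyme markers stood at 2.05% and 1.92% of their GFP- mean, where *Anxa1* stood at 2.46% and 3.83%, *Anxa3* at 10.2% and 11.2% and *Anxa6* at 22.4% and 23.0%.

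*Anxa8* (ENSMUSG00000021950, chr14:34899167-34913757, plus strand) was at the edge of detection. It had 2 and 0 counts in the P1 GFP+ libraries, where a count of 0 allows up to 0.121 CPM, and 36 and 34 counts in the P1 GFP- libraries. Relative to the gene totals, the summed GFP+ count was 0.0408 of the GFP- count (exact 95% interval 0.00485 to 0.153, which covers counting error only, since reads without molecular identifiers are not independent molecules). Its log2 fold change of -4.47 (SE 0.82, adjusted p = 0.00549 by edgeR) passed, but not with either P1 GFP+ library left out (adjusted p = 0.0258 and 0.0323 by edgeR). *Anxa2*, *Anxa7* and *Anxa11* did not pass. *Anxa2* (ENSMUSG00000032231, chr9:69301427-69339602, plus strand) measured 122 and 124 CPM in GFP+ and 158 and 197 CPM in GFP- libraries, a log2 fold change of -0.42 (SE 0.12, adjusted p = 0.0268 by edgeR). It passed when P1 GFP- replicate 1 was left out (log2 fold change -0.60, adjusted p = 2.12e-06 by edgeR), and 98 of its exon bases are shared with *Gm16144* on the other strand. *Anxa7* (ENSMUSG00000021814, chr14:21274483-21299355, minus strand) and *Anxa11* (ENSMUSG00000021866, chr14:26661669-26706290, plus strand) have long tails, with coding lengths of 1455 and 1509 bases. *Anxa7* measured 34.8 and 38.7 CPM in GFP+ and 41.5 and 40.9 CPM in GFP- libraries, a log2 fold change of -0.062 (SE 0.092, adjusted p = 0.602 by edgeR). *Anxa11* measured 7.81 and 7.63 CPM and 10.3 and 10.6 CPM, a log2 fold change of -0.33 (SE 0.15, adjusted p = 0.118 by edgeR).

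**Figure D2:**
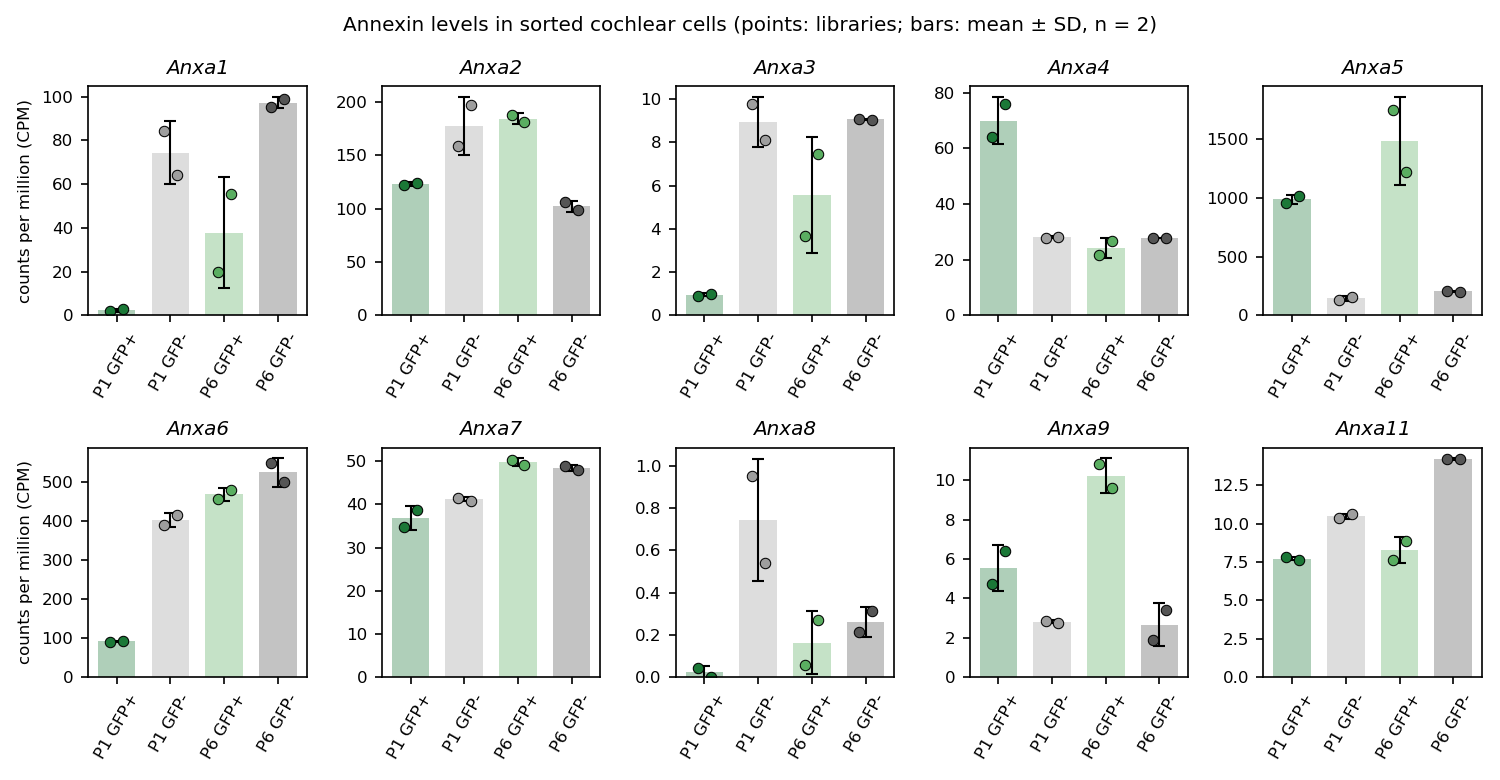
Each panel gives the level of 1 annexin in CPM, with points for the 2 libraries of each group and bars for the mean ± SD (n = 2). *Anxa5* lies between 961 and 1752 CPM in GFP+ and between 131 and 209 CPM in GFP- libraries, and the 2 P6 GFP+ libraries lie far apart for *Anxa1*, at 19.8 and 55.7 CPM.

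At P6 the same comparison left *Anxa5* alone past the test. It measured 1752 and 1221 CPM in P6 GFP+ and 209 and 200.3 CPM in P6 GFP- libraries. Both GFP+ libraries were again far above the GFP- libraries although they differed from each other, and the log2 fold change was 2.86 (SE 0.28, adjusted p = 0.00223 by edgeR). The other 9 did not pass, so 1 of 10 annexins was called where 12.9% of 18294 genes were, and that 1 differed by more than 4-fold, as did 7.98% of genes. Replicates did not overlap for 9 of 10 annexins, against 73.4% of all genes tested. The median log2 fold change was -0.19 for the annexins and -0.017 for all genes. The spread between the P6 GFP+ libraries was wide, and the count of annexins past the test was 4 without P6 GFP+ replicate 1 and 6 without P6 GFP+ replicate 2, in fits that called 29.2% and 40.5% of all genes. It was 0 without P6 GFP- replicate 1 or 2, where 2.01% and 0% of all genes were called, so these fits say little of the annexins. Without P6 GFP- replicate 1 or 2, *Anxa5* had an adjusted p of 0.0181 or 0.0311 by edgeR.

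*Anxa1* and *Anxa3*, the members nearly missing from P1 GFP+ cells, were present in P6 GFP+ cells at levels that depended on the library. *Anxa1* measured 19.8 and 55.7 CPM in P6 GFP+ and 95.5 and 99.1 CPM in P6 GFP- libraries. The GFP+ libraries were both lower, with a log2 fold change of -1.38 (SE 0.45, adjusted p = 0.0626 by edgeR). Without P6 GFP+ replicate 2 it was -2.28, and without replicate 1 it was -0.78, and it passed in both fits, in which the spread came from the GFP- pair alone. *Anxa3* measured 3.66 and 7.47 CPM in P6 GFP+ and 9.10 and 9.06 CPM in P6 GFP- libraries, a log2 fold change of -0.70 (SE 0.36, adjusted p = 0.188 by edgeR). Without P6 GFP+ replicate 2 it was -1.29 and passed. The markers of other cells moved with both genes, with each of the 8 lists higher in P6 GFP+ replicate 2, by 1.23-fold for neurons to 3.82-fold for endothelium. *Anxa1* was 2.81-fold and *Anxa3* 2.04-fold as high in P6 GFP+ replicate 2 as in replicate 1, and the 6 fibrocyte and mesenchyme markers 3.50-fold. Relative to the P6 GFP- mean, endothelial markers stood at 41.4% and 158% in P6 GFP+ replicates 1 and 2, and Schwann cell markers at 74.0% and 157%. The fibrocyte and mesenchyme markers stood at 4.36% and 15.3%, with *Anxa1* at 20.4% and 57.2% and *Anxa3* at 40.3% and 82.3%. The part of other cells in these levels was not tested.

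*Anxa2*, which lay lower in GFP+ than in GFP- libraries at P1, lay higher at P6, with 188 and 181 CPM in P6 GFP+ and 106 and 98.4 CPM in P6 GFP- libraries. The GFP+ libraries were the higher ones, with a log2 fold change of 0.85 (SE 0.16, adjusted p = 0.0132 by edgeR). *Anxa9* measured 10.9 and 9.61 CPM in GFP+ and 1.90 and 3.43 CPM in GFP- libraries, a log2 fold change of 1.94 (SE 0.36, adjusted p = 0.0122 by edgeR). Both missed the threshold of 0.01 while their libraries did not overlap, and in fits with either P6 GFP+ library left out, whose spread rests on the GFP- pair, both passed along with the 29.2% and 40.5% of all genes given above. *Anxa6* measured 457 and 481 CPM in GFP+ and 551 and 499.6 CPM in GFP- libraries, a log2 fold change of -0.17 (SE 0.19, adjusted p = 0.532 by edgeR). *Anxa4* measured 21.6 and 26.8 CPM and 27.8 and 27.8 CPM, a log2 fold change of -0.21 (SE 0.17, adjusted p = 0.403 by edgeR). Neither the shortfall of *Anxa6* nor the excess of *Anxa4* in GFP+ cells seen at P1 was detected at P6. *Anxa7* measured 50.4 and 49.2 CPM and 49.0 and 48.0 CPM, a log2 fold change of 0.033 (SE 0.14, adjusted p = 0.881 by edgeR). *Anxa11* measured 7.65 and 8.87 CPM and 14.2 and 14.2 CPM, a log2 fold change of -0.79 (SE 0.21, adjusted p = 0.0337 by edgeR). *Anxa8* had 1 and 8 counts in GFP+ and 13 and 21 in GFP- libraries, a ratio of 0.719 relative to the gene totals (exact 95% interval 0.303 to 1.53, counting error only).

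**Figure D3:**
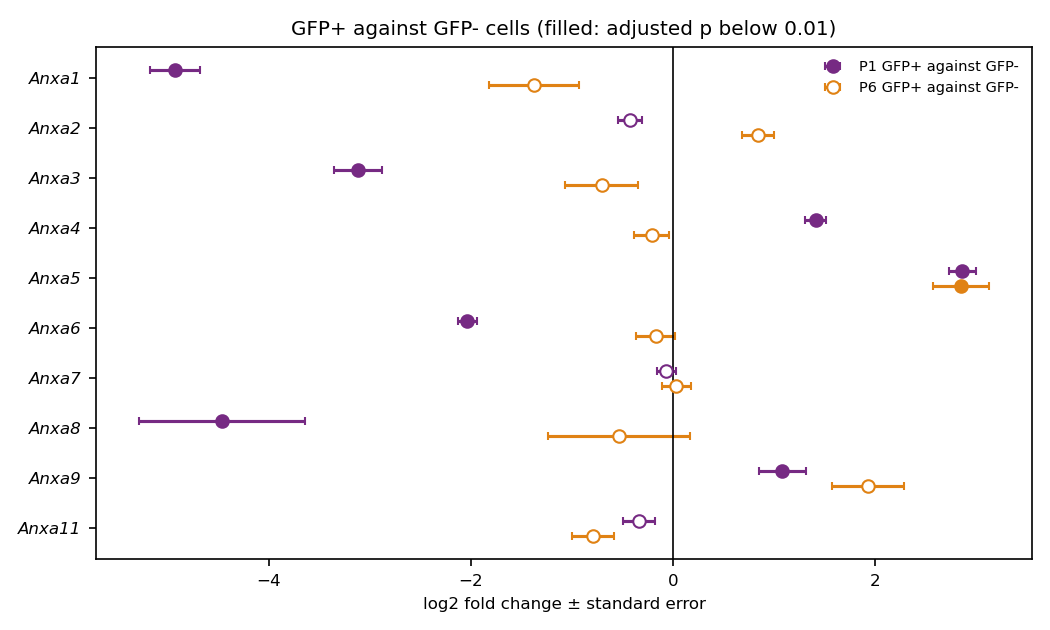
Points give the log2 fold change of GFP+ against GFP- cells at P1 and P6 for each annexin, bars the standard error, and filled points an adjusted p below 0.01. The P1 points run from -4.93 for *Anxa1* to 2.87 for *Anxa5*, and at P6 *Anxa5* at 2.86 is the filled point.

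The next comparison followed the supporting cells from P1 to P6. Within GFP+ cells *Anxa6* rose and *Anxa4* fell, and these 2 of the 9 annexins tested passed, against 4.81% of 17213 genes. *Anxa6* alone passed with more than a 4-fold change, against 2.56% of genes. Replicates did not overlap for 8 of the 9, against 70.3% of all genes tested, and *Anxa8* had too few counts to be tested. *Anxa6* went from 90.2 and 92.7 CPM at P1 to 457 and 481 CPM at P6, a log2 fold change of 2.45 (SE 0.13, adjusted p = 0.00208 by edgeR). *Anxa4* went from 63.9 and 75.9 CPM to 21.6 and 26.8 CPM, a log2 fold change of -1.44 (SE 0.16, adjusted p = 0.00656 by edgeR). The P6 level of *Anxa6* was 1.05-fold as high in GFP+ replicate 2 as in replicate 1, and that of the fibrocyte and mesenchyme markers 3.50-fold. Schwann cell markers summed to 359 to 417 CPM in P1 GFP+ and 1104 to 2343 CPM in P6 GFP+ libraries. Endothelial markers summed to 20.5 to 23.0 CPM and 45.4 to 174 CPM. Hair cell markers summed to 711 to 824 CPM in P1 GFP+ and 431 to 503 CPM in P6 GFP+ libraries. Supporting cell markers summed to 8283 to 8822 CPM and 5571 to 7255 CPM. The part of cell makeup in the changes of *Anxa6* and *Anxa4* was not tested. Both calls were lost without P1 GFP+ replicate 2, where the log2 fold changes were 2.44 for *Anxa6* and -1.34 for *Anxa4*. That fit also called a far smaller share of all genes than 4.81%, so the loss was not particular to these 2 genes. Without P6 GFP+ replicate 1 the count past the test was 7 and without P6 GFP+ replicate 2 it was 8, *Anxa4* and *Anxa6* among them each time, in fits that called 35.3% and 43.2% of all genes.

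The other members had wider errors. *Anxa1* went from 1.83 and 2.85 CPM to 19.8 and 55.7 CPM, a log2 fold change of 4.12 (SE 0.56, adjusted p = 0.0112 by edgeR), which was 3.25 without P6 GFP+ replicate 2 and 4.70 without replicate 1. It passed with a replicate block (log2 fold change 3.95, adjusted p = 0.000909 by edgeR). *Anxa3* went from 0.916 and 1.00 CPM to 3.66 and 7.47 CPM, a log2 fold change of 2.63 (SE 0.42, adjusted p = 0.0168 by edgeR). With the DESeq2 test, no filter or all 8 libraries in 1 fit *Anxa3* passed as well, but not with the replicate block. The mesenchymal markers also lay higher in both P6 GFP+ libraries than in the P1 GFP+ libraries, as given above. *Anxa5*, at 961 and 1017 CPM at P1 and 1752 and 1221 CPM at P6, had a log2 fold change of 0.69 (SE 0.24, adjusted p = 0.0991 by edgeR). Without P6 GFP+ replicate 2 it was 0.95 and passed, and without replicate 1 it was 0.37 and did not. The log2 fold changes of *Anxa2*, *Anxa7*, *Anxa9* and *Anxa11* were between 0.19 and 0.98, with adjusted p-values from 0.0203 to 0.539 by edgeR. Without P6 GFP+ replicate 2, *Anxa2* (0.73), *Anxa3* (2.06), *Anxa7* (0.58) and *Anxa9* (1.12) passed as well, and *Anxa11* (0.11) did not. The median over the 9 tested was 0.69, against -0.0024 for all genes.

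In GFP- cells, 0 of the 10 annexins passed between P1 and P6 with edgeR, against 7.38% of 18920 genes. An unadjusted p below 0.05 was reached by 7 of them, but the share of all genes at that cut is not given. DESeq2 called 5 (*Anxa1*, *Anxa2*, *Anxa5*, *Anxa6* and *Anxa11*), with 16.1% of all genes. Replicates did not overlap for 8 of 10, against 69.4% of all genes tested. *Anxa5* went from 131 and 160.2 CPM to 209 and 200.3 CPM, a log2 fold change of 0.69 (SE 0.13, adjusted p = 0.0136 by edgeR). *Anxa2* went from 158 and 197 CPM to 106 and 98.4 CPM, a log2 fold change of -0.61 (SE 0.14, adjusted p = 0.0242 by edgeR), and was the one member with a lower level at P6 among those DESeq2 called. *Anxa6* went from 390.1 and 415 CPM to 551 and 499.6 CPM, a log2 fold change of 0.58 (SE 0.13, adjusted p = 0.0253 by edgeR). For *Anxa1*, *Anxa7* and *Anxa11* the log2 fold changes were 0.58, 0.43 and 0.63, with adjusted p-values of 0.0364, 0.0367 and 0.0312 by edgeR. *Anxa3*, *Anxa4* and *Anxa9* had values of 0.21, 0.18 and 0.12 (adjusted p = 0.455, 0.330 and 0.838 by edgeR), and those of *Anxa4* and *Anxa9* turned to -0.014 and -0.068 with library totals. *Anxa8* had 36 and 34 counts at P1 and 13 and 21 at P6, a log2 fold change of -1.29 (SE 0.49, adjusted p = 0.110 by edgeR). The median was 0.32 for the annexins and -0.022 for all genes. The count past the test became 2 without P1 GFP- replicate 1 (*Anxa1* and *Anxa2*) and 1 without P1 GFP- replicate 2 (*Anxa5*), in fits that called 15.1% and 15.6% of all genes.

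**Figure D4:**
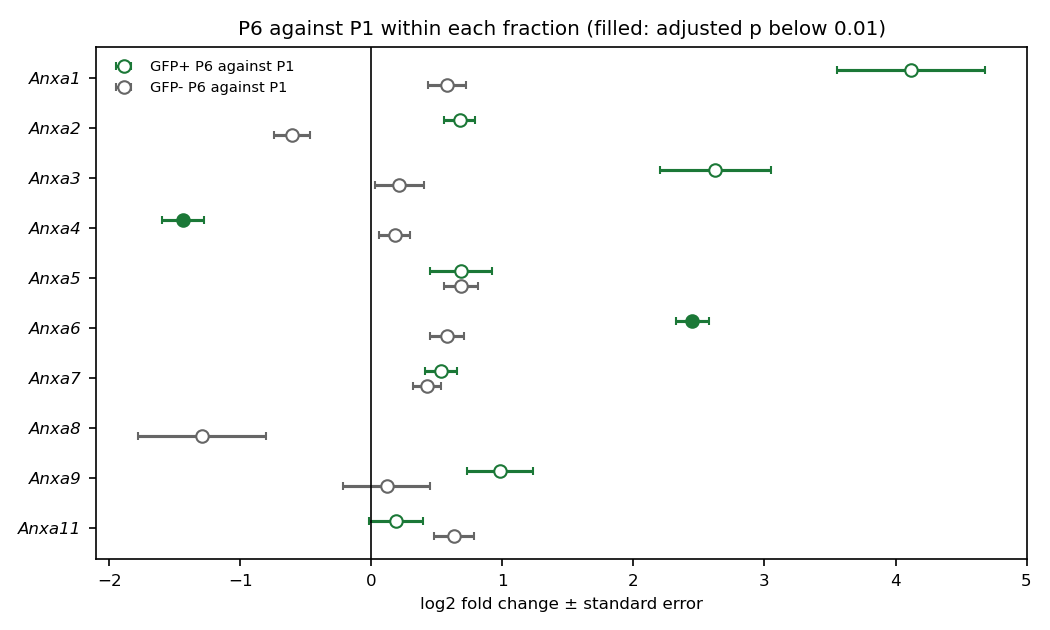
Points give the log2 fold change of P6 against P1 in GFP+ and in GFP- cells for each annexin, bars the standard error, and filled points an adjusted p below 0.01. The filled points are *Anxa6* at 2.45 and *Anxa4* at -1.44, both in GFP+ cells, and *Anxa8* was not tested there.

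Whether the ratio of GFP+ to GFP- cells differed between the ages was tested in 1 fit of all 8 libraries, as the age by fraction interaction. The ratio of *Anxa6* rose from P1 to P6 and that of *Anxa4* fell, and these 2 of 10 passed, against 1.93% of 19233 genes. The change in the log2 ratio was 1.85 (SE 0.19, adjusted p = 0.00234 by edgeR) for *Anxa6*, whose GFP+ level approached that of GFP- cells. It was -1.64 (SE 0.20, adjusted p = 0.00375 by edgeR) for *Anxa4*, whose level in GFP- cells was 27.8 to 28.3 CPM at both ages. For *Anxa5* the change was -0.022 (SE 0.30, adjusted p = 0.981 by edgeR), so that no difference between the ages was detected in its ratio. *Anxa1*, *Anxa2* and *Anxa3* had changes of 3.53, 1.26 and 2.40, with adjusted p-values of 0.0137, 0.0121 and 0.0214 by edgeR. *Anxa8* (3.93), *Anxa9* (0.84), *Anxa11* (-0.47) and *Anxa7* (0.08) had adjusted p-values from 0.112 to 0.832 by edgeR. The median change was 1.05 for the annexins and 0.031 for all genes. The count was 0 without either P1 GFP+ library or either P6 GFP- library, where 0.141% to 0.183% of all genes were called. It was 1 (*Anxa6*) without either P1 GFP- library, with 1.24% and 0.581% of all genes, and 5 without P6 GFP+ replicate 1 or 2, with 6.96% and 5.81%. The change for *Anxa5* was 0.23 (SE 0.21) without P6 GFP+ replicate 2.

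The order of the groups by mean CPM sums up each member. *Anxa5* ran from P6 GFP+ through P1 GFP+ and P6 GFP- down to P1 GFP-, with the libraries of neighbouring groups apart at each step. *Anxa6* ran from P6 GFP- through P6 GFP+ and P1 GFP- to P1 GFP+. *Anxa1*, *Anxa3* and *Anxa11* shared 1 order, from P6 GFP- through P1 GFP- and P6 GFP+ to P1 GFP+. The libraries overlapped between P6 GFP- and P1 GFP- for *Anxa3* and between P6 GFP+ and P1 GFP+ for *Anxa11*. *Anxa4* was highest in P1 GFP+ cells, followed by P1 GFP-, P6 GFP- and P6 GFP+, the last 3 lying between 21.6 and 28.3 CPM. *Anxa2* ran from P6 GFP+ through P1 GFP- and P1 GFP+ to P6 GFP-, with overlap between P6 GFP+ and P1 GFP-. *Anxa9* ran from P6 GFP+ and P1 GFP+ to P1 GFP- and P6 GFP-, the last pair overlapping. *Anxa7* was the most even, from a mean of 36.8 CPM in P1 GFP+ to 49.8 CPM in P6 GFP+ cells. *Anxa8* ran from P1 GFP- through P6 GFP- and P6 GFP+ to P1 GFP+, with overlap between the P6 fractions.

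The S100 proteins that bind annexin tails were followed as partners. The libraries of *Anxa2* lay lower in GFP+ cells at P1 and higher at P6, but neither difference, nor their change between the ages, passed the test. *S100a10*, the partner of ANXA2, had this order of fractions. It measured 22.5 and 20.4 CPM in P1 GFP+, 52.9 and 53.6 CPM in P1 GFP-, 110.0 and 71.8 CPM in P6 GFP+ and 25.7 and 25.2 CPM in P6 GFP- libraries. Its log2 fold change between fractions was -1.21 (SE 0.11, adjusted p = 0.000284 by edgeR) at P1 and 1.83 (SE 0.25, adjusted p = 0.00541 by edgeR) at P6. From P1 to P6 it rose in GFP+ cells, by 2.18 (SE 0.25, adjusted p = 0.00749 by edgeR) on the log2 scale, and in GFP- cells it fell, at a log2 fold change of -0.87 (SE 0.11, adjusted p = 0.00318 by edgeR). The change in its ratio between the ages was 3.03 (SE 0.30, adjusted p = 0.00187 by edgeR). These comparisons share libraries with each other, and each is given for its own value. The P6, age and interaction calls of *S100a10* were lost when certain single libraries were left out, and that in GFP- cells also with all 8 libraries in 1 fit, with adjusted p-values by edgeR from 0.0176 to 0.0435. Its P6 GFP+ level was lower in replicate 2, the library with more mesenchymal markers, and without that library the log2 fold changes were 2.13 between fractions at P6, 2.48 between ages in GFP+ cells and 3.32 for the change in ratio.

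**Figure D5:**
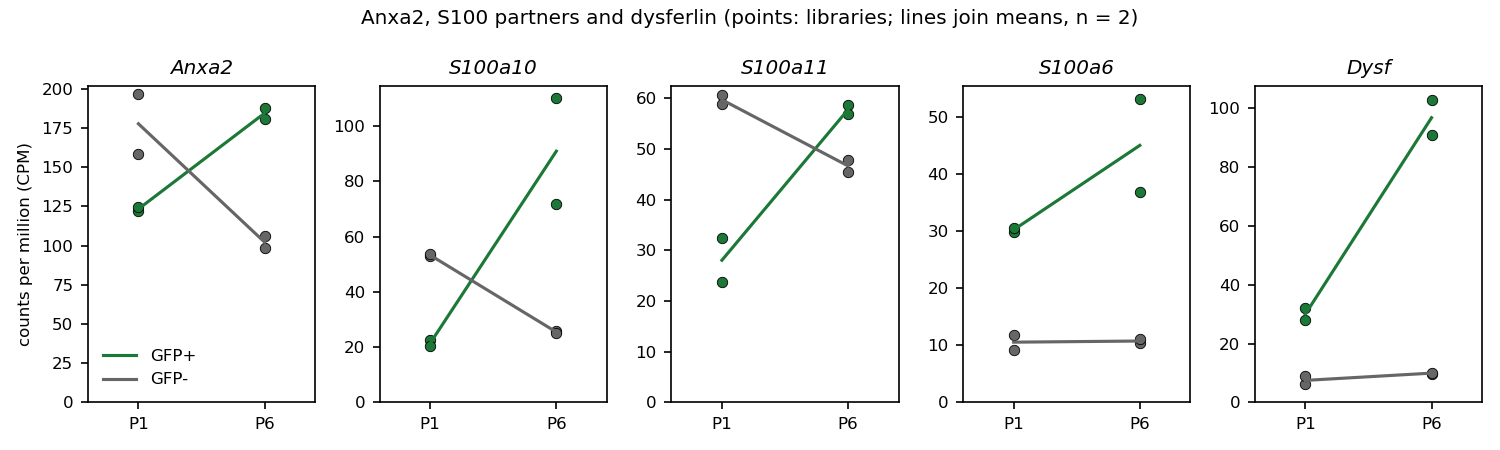
Points give the level in CPM of *Anxa2*, *S100a10*, *S100a11*, *S100a6* and *Dysf* in each library, green for GFP+ and grey for GFP-, and lines join the group means (n = 2). For *Anxa2*, *S100a10* and *S100a11* the lines cross between P1 and P6. *Dysf* reaches means of 96.7 CPM in P6 GFP+ and 9.95 CPM in P6 GFP- cells.

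Of the other S100 partners at P1, *S100a11*, the partner of ANXA1, was lower in GFP+ cells at 32.4 and 23.7 CPM against 60.6 and 58.8 CPM (log2 fold change -0.98 (SE 0.17, adjusted p = 0.00434 by edgeR)). *S100a6*, which binds several annexins, was higher, at 29.9 and 30.7 CPM against 9.26 and 11.9 CPM (log2 fold change 1.62 (SE 0.15, adjusted p = 0.000362 by edgeR)). *S100a4* was low at 0.545 and 0.603 CPM against 1.77 and 1.74 CPM, a log2 fold change of -1.51 (SE 0.30, adjusted p = 0.00766 by edgeR). At P6 *S100a6* was again higher in GFP+ cells, at 53.3 and 36.9 CPM against 10.4 and 11.1 CPM, with a log2 fold change of 2.06 (SE 0.24, adjusted p = 0.00355 by edgeR). It was 2.33 without P6 GFP+ replicate 2, and the call was lost without either P6 GFP- library (adjusted p = 0.0240 and 0.0346 by edgeR). *S100a11* measured 58.6 and 56.9 CPM in P6 GFP+ and 47.7 and 45.5 CPM in P6 GFP- libraries, and did not pass there. All 4 S100 partners thus passed at P1 (1 higher, 3 lower), where 37.3% of all genes did, and 2 at P6 (both higher), where 12.9% did. The P1 call of *S100a4* was lost with the DESeq2 test (adjusted p = 0.0126), a replicate block, all 8 libraries in 1 fit, or either P1 GFP+ library left out (adjusted p from 0.0160 to 0.0763 by edgeR), and that of *S100a11* without P1 GFP+ replicate 2 (adjusted p = 0.0148 by edgeR).

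Genes that work with annexins in membrane repair, on phosphatidylserine or in plasmin formation were counted as lists. At P1 they are read against the 16.6% of all genes that passed as higher and the 20.7% as lower, and DESeq2 called 41.9% of all genes there. At P6 edgeR called 12.9% of all genes and DESeq2 26.7%. Counts at an unadjusted p below 0.05, here and for the lists below, have no share of all genes beside them. They are not read as results about a list. Of 14 membrane repair genes, 2 were higher and 7 lower in GFP+ cells at P1, with 10 called by DESeq2. *Dysf*, encoding dysferlin, which brings vesicles to torn membrane, was higher at 27.8 and 32.1 CPM against 6.15 and 8.81 CPM, a log2 fold change of 2.10 (SE 0.20, adjusted p = 0.000351 by edgeR). *Smpd1*, encoding acid sphingomyelinase, was higher by 0.76 (SE 0.11, adjusted p = 0.00239 by edgeR) on the log2 scale. The lower members were led by the caveolar genes *Cav1*, with a log2 fold change of -4.86 (SE 0.20, adjusted p = 2.1e-05 by edgeR), and *Ehd2*, with -3.38 (SE 0.15, adjusted p = 2.43e-05 by edgeR). At P6 edgeR called 1 of the 14, with 8 at an unadjusted p below 0.05 and 7 called by DESeq2. This was *Dysf*, at 90.7 and 103 CPM against 9.76 and 10.1 CPM and a log2 fold change of 3.27 (SE 0.16, adjusted p = 0.000645 by edgeR). The value was 3.21 without P6 GFP+ replicate 2, and the call was lost without P6 GFP- replicate 2 (adjusted p = 0.0126 by edgeR). From P1 to P6 in GFP+ cells edgeR called 1 of the 14, again *Dysf* (log2 fold change 1.78 (SE 0.13, adjusted p = 0.00288 by edgeR)), which was 1.73 without P6 GFP+ replicate 2 and lost its call without P1 GFP+ replicate 2 (adjusted p = 0.0157 by edgeR). In that comparison 11 of the 14 had an unadjusted p below 0.05 and DESeq2 called 10, where it called 17.6% of all genes, and the median log2 fold change of the 14 was 0.74 against -0.0024 for all genes. In GFP- cells *Capns1*, the small calpain subunit, rose by 0.69 (SE 0.11, adjusted p = 0.00748 by edgeR) on the log2 scale and was the 1 of the 14 that edgeR called, with 6 at an unadjusted p below 0.05 and 3 called by DESeq2. Its call was lost with library totals, a replicate block or either P6 GFP- library left out (adjusted p from 0.0141 to 0.0494 by edgeR). The P1 call of *Smpd1* was lost with all 8 libraries in 1 fit or either P1 GFP+ library left out (adjusted p from 0.0106 to 0.0241 by edgeR).

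Of 8 phosphatidylserine scramblases and flippases, 2 were higher and 3 lower in GFP+ cells at P1, with 7 called by DESeq2. The flippase gene *Atp11a* was higher by 2.77 (SE 0.12, adjusted p = 2.41e-05 by edgeR) on the log2 scale and *Tmem30a*, the subunit that flippases need, by 0.89 (SE 0.083, adjusted p = 0.000335 by edgeR). The scramblase gene *Ano6* was lower, with a log2 fold change of -1.90 (SE 0.093, adjusted p = 3.32e-05 by edgeR). At P6 edgeR called 0 of the 8, with 7 at an unadjusted p below 0.05 and 5 called by DESeq2. Of 6 other phosphatidylserine-binding proteins and receptors tested, edgeR called 3 at each age, all lower in GFP+ cells. These included the receptor gene *Axl*, with log2 fold changes of -3.20 (SE 0.16, adjusted p = 3.41e-05 by edgeR) at P1 and -1.76 (SE 0.24, adjusted p = 0.00559 by edgeR) at P6, *Pros1* at P1 with -1.92 (SE 0.12, adjusted p = 7.34e-05 by edgeR), and *Mfge8* at P6 with -1.48 (SE 0.25, adjusted p = 0.00978 by edgeR). The P6 calls of *Axl* and *Mfge8* were lost without either P6 GFP- library (adjusted p from 0.0276 to 0.0505 by edgeR), and that of *Mfge8* also with library totals (adjusted p = 0.0145 by edgeR). Their log2 fold changes at P6 were -2.09 and -1.85 without P6 GFP+ replicate 2. *Mertk* rose in GFP- cells by 0.69 (SE 0.12, adjusted p = 0.00892 by edgeR) on the log2 scale. This call was lost with library totals, a replicate block, all 8 libraries in 1 fit or either P6 GFP- library left out (adjusted p from 0.0135 to 0.0617 by edgeR).

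Of 5 plasminogen system genes, 1 was higher and 3 lower in GFP+ cells at P1. *Plau*, encoding urokinase, was lower at both ages, with log2 fold changes of -4.03 (SE 0.29, adjusted p = 0.000124 by edgeR) at P1 and -2.58 (SE 0.34, adjusted p = 0.00511 by edgeR) at P6. The P6 value of *Plau* kept its call without P6 GFP+ replicate 2 but did not pass without either P6 GFP- library (adjusted p = 0.0357 and 0.0398 by edgeR). *Plg*, plasminogen itself, was higher at P1, at a mean of 1.39 CPM in GFP+ cells (log2 fold change 4.13 (SE 0.54, adjusted p = 0.00131 by edgeR)). The *Plg* call was lost without P1 GFP+ replicate 2 (adjusted p = 0.0125 by edgeR). Of 7 further binding partners, the large scaffold gene *Ahnak* was lower at P1, with a log2 fold change of -2.98 (SE 0.10, adjusted p = 1.4e-05 by edgeR), and *Pdcd6*, the ANXA7 and ANXA11 partner ALG-2, was higher by 0.51 (SE 0.093, adjusted p = 0.00522 by edgeR). The *Pdcd6* call was lost with library totals, all 8 libraries in 1 fit or either P1 GFP+ library left out (adjusted p from 0.0135 to 0.0515 by edgeR). At P6 edgeR called 0 of these 7, with 4 at an unadjusted p below 0.05 and 1 called by DESeq2. The 3 formyl peptide receptors, through which ANXA1 acts on leukocytes, had means of at most 0.237 CPM in all groups. For *Ahnak*, *Cav1*, *Ehd2* and *Axl*, as for *Anxa1*, expression in mesenchyme or endothelium is known, and the markers of both lay low in P1 GFP+ libraries (267 to 285 CPM for mesenchyme, 20.5 to 23.0 CPM for endothelium, against at least 12936 and 75.9 CPM in P1 GFP-). The part of cell makeup in these differences was not tested.

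The genes whose levels most resembled each of the 4 most abundant annexins were found over the 8 libraries among 10911 genes, as the smallest root mean square difference of centred log2(CPM + 0.5). For *Anxa5* they were *Tst* (0.161), *Trpv4* (0.177) and *Id4* (0.201). *Trpv4*, a calcium-permeable channel gene, measured 111 and 128 CPM in P1 GFP+, 13.3 and 17.5 CPM in P1 GFP-, 146 and 127 CPM in P6 GFP+ and 19.6 and 18.3 CPM in P6 GFP- libraries. For *Anxa6* they were *Csrp1* (0.141), *Adamts1* (0.164) and *Acbd4* (0.167). For *Anxa2* they were *Hunk* (0.0993), *Dynlt1-ps1* (0.149) and *Rgmb* (0.164), and *Dynlt1-ps1* may share reads with its parent gene. For *Anxa1* the differences were larger, at 0.328 for *Cntfr*, 0.396 for *Eng* and 0.436 for *Eln*. The 8 points share the sorts and the groups, so this likeness is a description.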

How the data were processed

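RNA-seq libraries from 8 samples of sorted cochlear cells were analysed, in 4 groups taken from the labels, with 2 libraries each. The authors deposited 1 table a library of raw, unnormalized counts by Ensembl gene. They aligned paired reads to the Ensembl mm9 genome with TopHat, and the submitters' processing notes name TopHat 1.4.0, HTSeq and DESeq 1.9.2. The counting mode and strand setting are not given in the sources used here. Lines that name no gene held 23.8% to 35.3% of the counts listed per library and stayed out of all totals and tests.

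Symbols, positions and exon lengths came from the NCBIM37 annotation (34391 of 36536 genes matched). Levels are CPM of the gene total, or CPM per kilobase of exon between genes. At 17769024 counts, the smallest library, 3 counts amount to 0.169 CPM, which limits the low members. Each pair of groups was fitted on its 4 libraries, and the interaction on all 8, with edgeR 4.0.16 (filterByExpr with a minimum count of 10 and a minimum total of 15, TMM, quasi-likelihood test, Benjamini-Hochberg adjustment over all genes tested). A gene passed at an adjusted p below 0.01, and the study's further criterion of a fold change above 4 is given as a count. The SE is the log2 fold change divided by the square root of F. The tools were R 4.3.3, DESeq2 1.42.0, Python 3.11.15, pandas 2.3.3 and matplotlib 3.10.9. Each main fit was also run on simulated counts with the same dispersion in all groups. These did not cover unequal spread between groups or fits with a library left out, and their outcome is not given.

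Replicates of a group differed by more than sampling noise (chi-square per degree of freedom 15.3 to 58.7), so each was counted as 1 sample. The groups share the replicate numbers 1 and 2, but the differences between replicates correlated across 15477 genes at 0.0361 and 0.0587 between the fractions of an age, and at -0.158 and -0.328 between the ages of a fraction, so the numbers were not taken as pairs.

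All 10 annexins are named, with *Anxa10* and *Anxa13*, the S100 partners past the test, and per list and direction up to 2 genes that passed, ranked by fold change, if their mean was at least 1 CPM in the higher group. Some list genes that the rule names are not reported here, although the counts include them. *Trpv4* was picked from the genes of like pattern after its values were seen. The members and lists were chosen with earlier results of these data known. Alternatives were DESeq2 size factors, library totals, no filter on low counts, the DESeq2 test, an adjusted p below 0.05, a replicate block, all 8 libraries in 1 fit, TMM-scaled levels and each library left out. A crossed replicate block, and the alternatives for list genes, were added after seeing the data.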

Additional observations from a re-analysis of the deposited data

Results flagged for a closer look

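In 3 genes the ratio of GFP+ to GFP- cells differed between P1 and P6 by the interaction test over all 8 libraries. For *Anxa4* the P6 log2 ratio minus the P1 log2 ratio was -1.64 (adjusted p = 0.00375 by edgeR), with a log2 ratio of 1.42 at P1 and -0.21 at P6. For *Anxa6* it was 1.85 (adjusted p = 0.00234 by edgeR), from -2.03 at P1 to -0.17 at P6. For *S100a10* it was 3.03 (adjusted p = 0.00187 by edgeR), from -1.21 at P1 to 1.83 at P6. All 3 values stayed on their side of 0 with each library left out in turn, with ranges of -1.78 to -1.51 for *Anxa4*, 1.74 to 1.95 for *Anxa6* and 2.65 to 3.32 for *S100a10*. Each of the 3 calls was lost in some of these fits, as given above. With 2 libraries a group, no single library could be tested as standing apart from its group.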

How the results depend on the processing

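Of 518 recomputed log2 fold changes of annexins, 417 kept their direction and their side of the threshold, 67 newly passed, 22 no longer passed and 12 changed sign. The number of annexins past the test at P1 stayed within 1.5 times the 7 given. With single libraries left out, the share of all genes called moved far from the 37.3% of the main fit. The steady count is therefore not read as a result about the annexins. At P6 the 1 annexin became 2 with DESeq2 size factors, 3 with the DESeq2 test, and 4 with no filter on low counts, with all 8 libraries in 1 fit and at an adjusted p below 0.05, and 0 to 6 with single libraries left out. In GFP+ cells the 2 became 4 with all 8 libraries, 5 with the DESeq2 test and with no filter, 7 at an adjusted p below 0.05 and 0 to 8 with single libraries left out. In GFP- cells the 0 became 5 with the DESeq2 test and with no filter, 6 at an adjusted p below 0.05 and 0 to 2 with single libraries left out. For the interaction the 2 became 5 with the DESeq2 test, with no filter and at an adjusted p below 0.05, and 0 to 5 with single libraries left out. The shares of all genes called moved as well. At P6 they were 15.5% with DESeq2 size factors, 26.7% with the DESeq2 test, 20% with no filter and 26.8% with all 8 libraries. In GFP+ cells they were 12.3% with all 8 libraries, 17.6% with the DESeq2 test and 15.6% with no filter. The DESeq2 test and no filter called 16.1% and 14.8% in GFP- cells, and 7.48% and 8.45% for the interaction. Shares at an adjusted p below 0.05 are not given, and counts at that cut are not read as results about the annexins. The cause of these shifts was not tested. With the replicate block the counts were 6 at P1, 1 at P6, 3 in GFP+ cells, 0 in GFP- cells and 2 for the interaction. Among annexins it changed 2 calls, *Anxa9* at P1 and *Anxa1* between the ages in GFP+ cells, and the numbers share only a label. A crossed block, chosen after seeing the data, gave 3 in GFP+ and 4 in GFP- cells. The P6 value of *Anxa7* was -0.015 with no filter and that of *Anxa8* ran from -2.14 to 0.061 with single libraries left out, positive without P6 GFP+ replicate 1. Between the ages in GFP- cells, *Anxa4* was -0.014 and *Anxa9* -0.068 with library totals, and *Anxa9* ran from -0.33 to 0.46 with single libraries left out, negative without P6 GFP- replicate 2. The interaction of *Anxa5* was 0.0085 with DESeq2 size factors, 0.0084 with the DESeq2 test, 0.096 with library totals, and -0.35 to 0.23 with single libraries left out, positive in 4 of 8 such fits. Library totals in place of TMM shifted the median log2 fold change of all genes by -0.105 at P1, -0.191 in GFP- cells and 0.125 for the interaction. TMM scaling moved 19 of 40 mean levels by more than 1 SD. Counts of at most 36 per library leave *Anxa8* imprecise.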
